A study of Mus musculus with 22 samples.

Results

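The 10 genes described here encode glycolytic enzymes: the pyruvate kinases Pklr and Pkm, the hexokinases Hk1 and Hk2, the phosphofructokinases Pfkl and Pfkm, the aldolase Aldoa, the bisphosphoglycerate mutase Bpgm and the lactate dehydrogenases Ldha and Ldhb. They are 10 of 47310 annotated genes with transcripts in the files. The set was chosen by name, around the large KO-against-WT difference of Pklr in CMP cells, so the KO-against-WT values of these genes in CMP are given as a description without a test. RNA was sequenced from bone marrow populations of C57BL/6 Arid1a f/f;Mx1-Cre+ mice (KO, labelled ARID1A-/-) and of Arid1a f/f;Mx1-Cre- littermates (WT), in which exon 9 of Arid1a is floxed. All mice, WT included, had been given 5 doses of 300 ug poly(I:C), which switches on the interferon-inducible Mx1 promoter. They were adults of 8 to 14 weeks at that time, and cells were sorted 4 weeks later. Common myeloid progenitors (CMP), granulocyte-macrophage progenitors (GMP) and megakaryocyte-erythroid progenitors (MEP) came from 3 WT mice (300, 305 and 309) and 3 KO mice (301, 304 and 308), each of which gave all 3 populations. Long-term hematopoietic stem cells (LT-HSC; CD34-Flt3- Lin-Sca1+Kit+) came from 2 WT (S245, S269) and 2 KO mice (S244, S270) and were prepared with another library kit.

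Glycolysis splits glucose into pyruvate and yields ATP without oxygen. Hexokinase traps glucose as its phosphate, phosphofructokinase commits it to the pathway, aldolase cleaves the resulting sugar bisphosphate, pyruvate kinase makes the last ATP and lactate dehydrogenase regenerates NAD+. Mature red cells have no mitochondria and depend on this pathway, and inherited deficiency of the red cell pyruvate kinase is a classic cause of hemolytic anemia. Most steps have several isozymes that are used by different tissues. Pklr makes the liver (L) and red cell (R) enzymes from separate start sites, whereas Pkm makes the M1 and M2 enzymes by choosing between a pair of mutually exclusive exons.

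Pklr lies at chr3:89136142-89146784 on the plus strand (GRCm38). Of its 2 long coding transcripts, Pklr-201 starts upstream, at position 89136142, and has a coding length of 1722 bases (the R type), and Pklr-202 starts at 89136572, with a coding length of 1629 bases (the L type). Pfkm, at chr15:98092589-98132451 on the plus strand, also has an upstream start (Pfkm-202, at 98092589) and a downstream start (Pfkm-201, at 98108466), with the same coding length of 2340 bases. The share of the upstream start differed between populations for Pfkm, as described below. Pklr-201 made up 89.0% or above of the TPM of the 2 long Pklr transcripts in every library. Shorter Pklr transcripts are not counted in that share. The windows around these starts are shown because the levels of the upstream transcripts differed between populations. They are RefSeq windows of GRCm38.p6 from 250 bases before to 50 bases after a start, and the windows marked downstream are placed on the RefSeq starts at 89136623 and 98108471. Capitals mark GATAA, the core of sites for GATA factors, CACCC, the core of sites for Klf1, and ACGTG, which is found in sites for hypoxia-inducible factors, on either strand; a CACGTG is counted on both strands.
Pklr upstream, chr3:89135892-89136191, plus strand: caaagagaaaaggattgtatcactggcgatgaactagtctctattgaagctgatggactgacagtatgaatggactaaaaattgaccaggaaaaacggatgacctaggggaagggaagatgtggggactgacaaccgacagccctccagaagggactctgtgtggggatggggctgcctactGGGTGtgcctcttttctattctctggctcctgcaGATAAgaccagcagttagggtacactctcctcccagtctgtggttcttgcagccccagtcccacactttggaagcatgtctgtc
Pklr downstream, chr3:89136373-89136672, plus strand: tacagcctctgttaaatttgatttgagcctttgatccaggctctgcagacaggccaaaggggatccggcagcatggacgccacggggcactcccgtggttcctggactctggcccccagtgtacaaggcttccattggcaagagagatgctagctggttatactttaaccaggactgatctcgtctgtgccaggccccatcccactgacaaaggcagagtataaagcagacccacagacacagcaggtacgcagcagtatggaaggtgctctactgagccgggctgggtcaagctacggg
Pfkm upstream, chr15:98092339-98092638, plus strand: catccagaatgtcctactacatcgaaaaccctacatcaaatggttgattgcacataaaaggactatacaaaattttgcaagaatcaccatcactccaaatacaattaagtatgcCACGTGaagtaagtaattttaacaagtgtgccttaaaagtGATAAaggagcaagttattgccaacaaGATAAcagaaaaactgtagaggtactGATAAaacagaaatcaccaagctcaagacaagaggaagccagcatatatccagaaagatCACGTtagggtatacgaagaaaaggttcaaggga
Pfkm downstream, chr15:98108221-98108520, plus strand: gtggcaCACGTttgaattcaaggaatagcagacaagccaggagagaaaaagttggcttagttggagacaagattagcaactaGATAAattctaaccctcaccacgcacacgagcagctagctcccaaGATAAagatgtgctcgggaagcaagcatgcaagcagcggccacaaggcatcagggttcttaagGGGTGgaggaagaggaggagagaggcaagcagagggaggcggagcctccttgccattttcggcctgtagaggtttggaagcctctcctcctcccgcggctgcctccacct

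The upstream Pklr window held a CACCC on the minus strand from position -68 and a GATAA on the plus strand from position -34, counted from the start. Of 32851 windows of this length over all genes, 25.4% held GATAA, 57.5% held CACCC, 12.6% held both and 19.6% held ACGTG. The downstream Pklr window held no match to these letters. The upstream Pfkm window held 3 GATAA on the plus strand, from -96, -69 and -43, and 3 matches to ACGTG, with no CACCC. The downstream Pfkm window held 2 GATAA on the plus strand, from -168 and -123, a CACCC on the minus strand from -60 and an ACGTG from -244. The upstream and downstream Pfkm windows thus both held GATAA. The 10 genes have 19 windows in the table, and 4 of these held both GATAA and CACCC. Such matches are short and frequent, and no binding was measured here.

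The library totals were 40804031 to 65930737 estimated counts on genes, with a median of 52785379.5. Levels are given as TPM, a gene's share of the transcripts of a library scaled for length, which also allows genes to be compared with each other. KO and WT were compared in CPM, the share of counts after TMM scaling, as log2 fold changes with standard errors (SE) from edgeR's quasi-likelihood test, at a Benjamini-Hochberg adjusted p of 0.1. Arid1a itself was lower in KO libraries without overlap in CPM in all 4 populations, by -1.14 on the log2 scale in LT-HSC (adjusted p = 0.422), -0.22 in CMP (0.0284), -0.40 in GMP (0.0246) and -0.14 in MEP (0.0836), in edgeR's test. This sum over the whole gene does not measure the floxed exon. Cd34 averaged 440 TPM in WT CMP and 5.06 in WT MEP, and Fcgr3 was highest in GMP, with 11.5 TPM in WT CMP and 0.686 in WT MEP. The 7 stem cell markers summed to 964 to 1292 TPM in WT LT-HSC and at most 126 in WT CMP. However, the LT-HSC libraries also held 16 erythroid markers at 5524 to 7199 summed TPM, against 7959 to 8721 in WT MEP, beside the Pklr level found there. In WT and KO respectively, monocyte markers summed to 1350-1600 and 929-1180 TPM in GMP, and megakaryocyte markers to 25.8-48.4 and 72.7-97.8 TPM in MEP. In LT-HSC, neutrophil precursor markers summed to 1002 to 3732 TPM in WT and 1375 to 1518 TPM in KO. B cell markers reached at most 89.5 TPM and T and NK cell markers at most 68.5 TPM in any library.

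**Figure D1:**
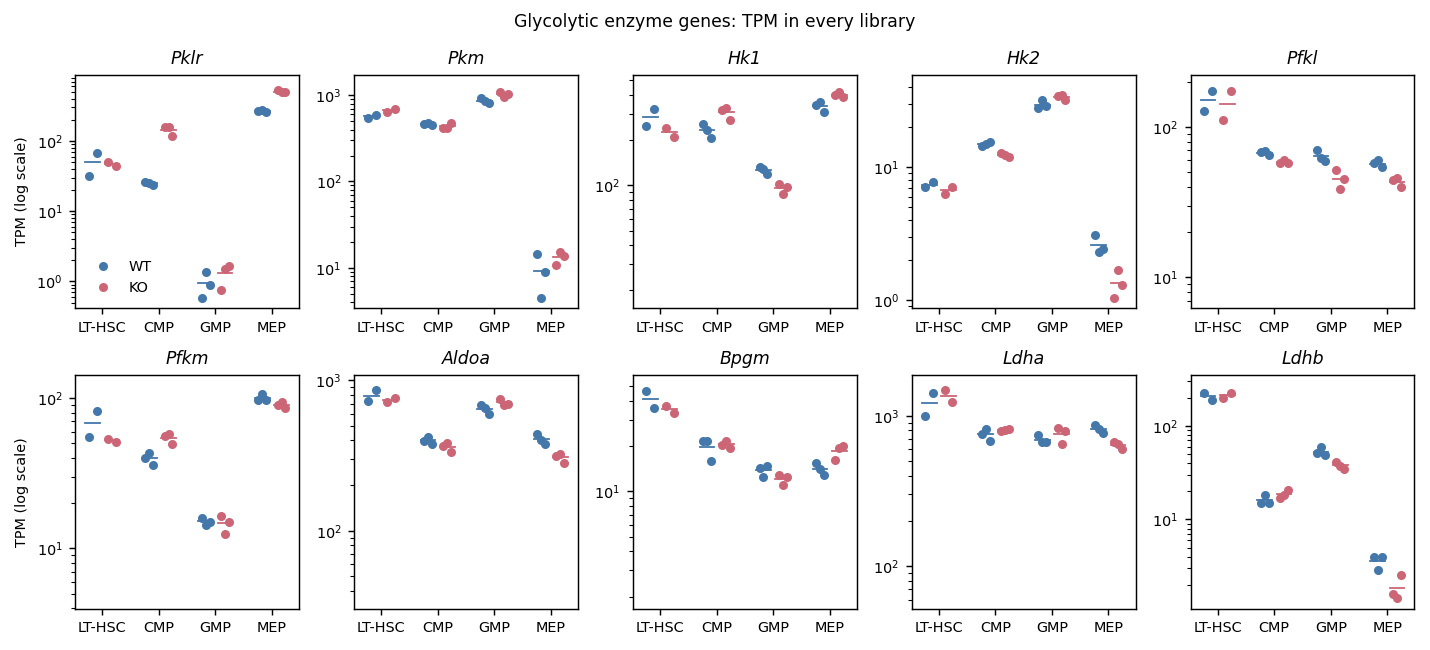
TPM (log scale) of the 10 genes in 22 libraries, by population, with WT in blue, KO in red and a bar at each group's mean. Pklr spans 0.579 to 523 TPM, highest in MEP and lowest in GMP, whereas Pkm, Hk2 and Ldhb are lowest in MEP.

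Pklr was highest in MEP and lowest in GMP. Its level was higher in KO than in WT cells in CMP (no test) and MEP, whereas in GMP the difference depended on the measure used. In WT MEP it stood at 264, 278 and 261 TPM (mice 300, 305 and 309), or 268 ± 9.01 (SD, n = 3). WT CMP had 26.2, 25.1 and 23.4 TPM, and WT GMP had 0.579, 1.35 and 0.888 TPM, from 38 to 66 estimated counts. The 3 populations did not overlap. When the 18 precursor libraries were fitted together, blocked by mouse, WT MEP exceeded WT CMP by 3.70 ± 0.12 (log2, SE; adjusted p = 4.29e-11) and WT GMP by 9.07 ± 0.17 (1.85e-13), and WT GMP was below WT CMP by -5.37 ± 0.16 (6.19e-11). The WT CMP libraries are the controls of the contrast from which Pklr was noted.

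In CMP, Pklr stood at 156, 156 and 118 TPM in KO mice 301, 304 and 308, a mean of 144 ± 21.9 against 24.9 ± 1.42 TPM in WT (SD, n = 3 each). All KO libraries were above all WT libraries, and the log2 fold change was 2.37 ± 0.10 (SE), or 5.18-fold. The KO CMP level was still below that of WT MEP. With bulk RNA, a larger number of Pklr-expressing cells in the CMP gate and more Pklr RNA per cell cannot be told apart. Of the 16 erythroid markers, 15 rose in KO CMP at an adjusted p of 0.1, against 10.6% of 17213 genes tested that were higher, and their sum went from 1397-1564 to 2382-2884 TPM. Pklr per 1000 TPM of these markers was 16.0 to 17.3 in WT and 49.7 to 56.7 in KO CMP. Their part in the Pklr difference was not tested.

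The MEP libraries, which lie outside the contrast from which Pklr was noted, gave the same direction. KO MEP had 523, 496 and 490 TPM, against 264, 278 and 261 in WT, and the groups did not overlap. The log2 fold change was 0.86 ± 0.04 (SE; 1.82-fold; adjusted p = 1.57e-05). The mice, however, were the same as in CMP, and the genes were chosen with earlier results of these data known. Among the erythroid markers in MEP, 11 of 16 rose and 1, the carbonic anhydrase Car1, fell, where 14% of all genes were higher and 15.4% lower. The sum of the 16 markers was lower in KO (7099 to 7269 TPM) than in WT (7959 to 8721 TPM), and Car1 alone averaged 4499 TPM in WT and 2172 in KO. In GMP, KO libraries had 0.755, 1.5 and 1.64 TPM of Pklr and overlapped the WT libraries, although the CPM did not overlap (1.48 to 2.73 against 0.735 to 1.07). The log2 fold change there was 1.10 ± 0.29 (adjusted p = 0.0203), and this call was lost with an offset for transcript length (0.66 ± 0.40, adjusted p = 0.286). Of the 16 erythroid markers in GMP, 3 rose and 3 fell, near the shares over all genes tested there (17.5% higher and 16.3% lower). Their sum was 154 to 236 TPM in WT and 194 to 210 in KO.

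In CMP and MEP, most Pklr RNA was assigned to the R-type transcript whose start is shown above. In LT-HSC, Pklr-201 averaged 25.8 of 49.6 TPM in WT and 17.7 of 47 TPM in KO. In WT GMP it averaged 0.483 of 0.939 TPM. The rest there lay mostly in shorter Pklr transcripts. Pklr-201 made up 90.6% to 90.8% of the TPM of both long transcripts in WT MEP and 89.0% to 91.0% in KO MEP. In CMP its share was 91.9% to 97.4% in WT and 92.0% to 94.2% in KO, which overlapped. In absolute terms Pklr-201 went from 21.5-24.0 TPM in WT CMP to 99.7-135 TPM in KO CMP, and Pklr-202 from 0.637-1.91 to 7.94-11.4 TPM. Both starts were thus higher in KO CMP.

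Pkm, which is the broadly expressed pyruvate kinase gene (chr9:59656368-59679375, plus strand), followed the reverse order. WT GMP had 918, 848 and 820 TPM, WT CMP 463, 475 and 457, and WT MEP 14.5, 4.44 and 8.82. The 3 populations did not overlap. WT MEP was below WT CMP by -5.40 ± 0.27 (log2, SE; adjusted p = 8.55e-10), and WT GMP was above WT CMP by 1.04 ± 0.22 (0.00184). In KO GMP, Pkm rose to 1100, 944 and 1030 TPM, a log2 fold change of 0.40 ± 0.07 (adjusted p = 0.00324) that did not pass when all 18 precursor libraries were fitted together (0.41 ± 0.24, adjusted p = 0.24). KO MEP had 10.7, 15.2 and 13.7 TPM, which overlapped WT; the log2 fold change was 0.48 ± 0.35 (adjusted p = 0.395), and without WT mouse 300 it was 0.96 ± 0.29 (0.0687). The 10 neutrophil precursor markers summed to 53.8 to 161 TPM in WT MEP and 44.3 to 60.9 in KO MEP, against 30249 to 35649 in WT GMP. In CMP, KO libraries had 413, 422 and 482 TPM against 457 to 475 in WT, with a log2 fold change of -0.18 ± 0.07 (SE).

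The M2 exon dominated Pkm in every population. The exclusive coding exons are shown since they are what separates the isoforms: each has 167 bases, and the 64 positions at which they differ are in capitals (GRCm38, plus strand).
Pkm-201, M2 exon, chr9:59675568-59675734: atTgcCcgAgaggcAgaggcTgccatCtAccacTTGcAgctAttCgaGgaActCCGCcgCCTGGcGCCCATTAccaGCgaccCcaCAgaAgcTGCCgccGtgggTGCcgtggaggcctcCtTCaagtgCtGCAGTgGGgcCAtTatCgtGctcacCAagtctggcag
Pkm-202, M1 exon, chr9:59675029-59675195: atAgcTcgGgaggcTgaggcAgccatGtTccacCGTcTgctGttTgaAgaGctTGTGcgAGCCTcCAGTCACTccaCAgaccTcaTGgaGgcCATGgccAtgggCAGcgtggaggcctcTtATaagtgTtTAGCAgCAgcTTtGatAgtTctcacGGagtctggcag
Pkm-201 took 92.7% to 93.6% of Pkm TPM in WT CMP, 93.1% to 94.5% in WT GMP and 84.2% to 90.7% in WT MEP, where the level was low. In KO the shares were 90.6% to 92.1% in CMP, 94.0% to 95.4% in GMP and 91.2% to 95.2% in MEP. The KO CMP libraries were all below the WT libraries, by -1.60 percentage points on average, and the KO MEP libraries were all above them, by 4.77 points. These shares were not tested. The 2 transcripts also differ at their ends, so the exon is not the only basis of the assignment.

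**Figure D2:**
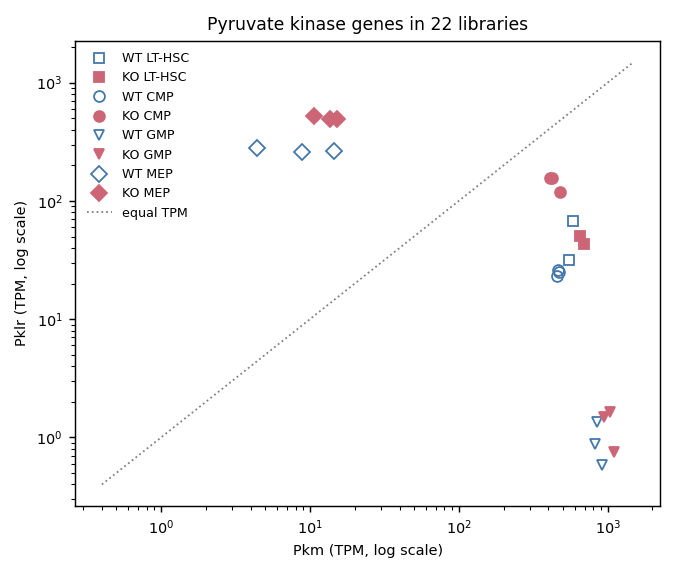
Pklr against Pkm in TPM (log scales) in each of 22 libraries, with WT open, KO filled and a dotted line at equal TPM. Only the 6 MEP libraries lie above the line, and KO CMP libraries lie above WT CMP libraries at a similar Pkm level.

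Read as a ratio, pyruvate kinase RNA was nearly all Pklr in MEP and nearly all Pkm in GMP. Pklr over Pkm was 18.1 to 62.6 in WT MEP and 32.6 to 48.9 in KO MEP. It was 0.000631 to 0.00159 in WT GMP and 0.000687 to 0.00159 in KO GMP. WT CMP had 0.0513 to 0.0567 and KO CMP 0.246 to 0.379, so that Pklr made up 4.88% to 5.37% of pyruvate kinase TPM in WT CMP and 19.7% to 27.5% in KO CMP. The log2 ratio differed between KO and WT by 2.60 in CMP (no test), by 0.26 in MEP and by 0.18 in GMP (exact two-sided permutation test, p = 0.7 for each, adjusted p = 0.875). With 3 against 3 libraries this test cannot go below 0.1, and 15 ratio tests were adjusted together, 3 of them on CMP ratios whose p-values are not used here.

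Of the pair Hk1, the isozyme of red cells and brain, and Hk2, the inducible isozyme, Hk1 was the higher in all populations and the share of Hk2 was largest in GMP; the myeloid Hk3, described below, exceeded both in WT GMP. Hk1 had 343, 356 and 307 TPM in WT MEP, 255, 234 and 207 in WT CMP and 133, 129 and 119 in WT GMP, with no overlap. WT MEP exceeded WT CMP by 0.78 ± 0.06 (log2, SE; adjusted p = 7.13e-08). Hk2 had 27.9, 31.9 and 29.0 TPM in WT GMP, 14.4, 15.1 and 15.4 in WT CMP and 3.08, 2.31 and 2.43 in WT MEP, so its order was the reverse. WT MEP was below WT CMP by -2.45 ± 0.13 (1.24e-09) and WT GMP was above it by 1.15 ± 0.12 (2.94e-06).

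The KO moved the pair in opposite directions in MEP and in GMP. In KO MEP, Hk1 rose to 399, 420 and 384 TPM (log2 0.24 ± 0.06, adjusted p = 0.0215) and Hk2 fell to 1.03, 1.68 and 1.29 TPM (-1.02 ± 0.23, adjusted p = 0.0157). In KO GMP, Hk1 fell to 102, 87.0 and 97.6 TPM (-0.19 ± 0.06, adjusted p = 0.0448) and Hk2 rose to 34.5, 34.9 and 31.9 TPM (0.33 ± 0.07, adjusted p = 0.00564). The Hk1 call in GMP was lost without KO mouse 304 (adjusted p = 0.11), without KO mouse 308 (0.107), without a filter on low counts (0.101) and in the fit of all 18 precursor libraries (0.104). In CMP, Hk1 went from 207-255 to 273-327 TPM and Hk2 from 14.4-15.4 to 11.9-12.7 TPM, with log2 fold changes of 0.26 ± 0.09 and -0.38 ± 0.06 (SE). The log2 ratio of Hk1 over Hk2 had KO and WT apart in GMP (difference -0.60) and MEP (1.19), each with the smallest p that the exact permutation test allows (p = 0.1, adjusted p = 0.214). In CMP the difference was 0.68, given without a test.

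Of the pair Pfkl, the liver isozyme, and Pfkm, the muscle isozyme, Pfkl was the higher in WT GMP and Pfkm in WT MEP. The difference lay in Pfkm, and the share of its upstream start was also larger in MEP. Another phosphofructokinase gene, Pfkp, was called lower in WT MEP than in WT GMP (edgeR). The pair therefore does not describe all phosphofructokinase RNA. Pfkl differed little between WT populations (67.8, 69.7 and 64.8 TPM in CMP, 70.0, 62.6 and 59.4 in GMP, 57.3, 60.1 and 53.9 in MEP), and none of its population contrasts passed (adjusted p of 0.349 to 0.905). Pfkm had 97.2, 107 and 97.3 TPM in WT MEP, 40.1, 43.3 and 35.9 in WT CMP and 16.0, 14.3 and 15.1 in WT GMP. It was higher in WT MEP than in WT CMP by 1.64 ± 0.09 (log2, SE; adjusted p = 1.36e-09) and lower in WT GMP by -1.22 ± 0.09 (1.04e-07). Pfkl over Pfkm was therefore 0.554 to 0.589 in WT MEP and 3.94 to 4.38 in WT GMP.

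The Pfkm difference lay mainly in the upstream transcript. Pfkm-202 had 88.4 to 101 TPM in WT MEP, 13 to 22.3 in WT CMP and 1.39 to 2.32 in WT GMP. Pfkm-201 had 6.43 to 8.84, 21.0 to 25.2 and 12.0 to 14.1 TPM in the same groups. The upstream start thus gave 90.9% to 94.0% of Pfkm TPM in WT MEP, 36.2% to 51.5% in WT CMP and 9.22% to 16.2% in WT GMP, without overlap between the populations. KO shares were 94.3% to 94.8% in MEP, 45.8% to 49.5% in CMP and 13.5% to 22.3% in GMP, and only those of MEP lay apart from WT, by 1.97 percentage points. These shares rest on 1389 to 11355 estimated counts per precursor library and were not tested.

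**Figure D3:**
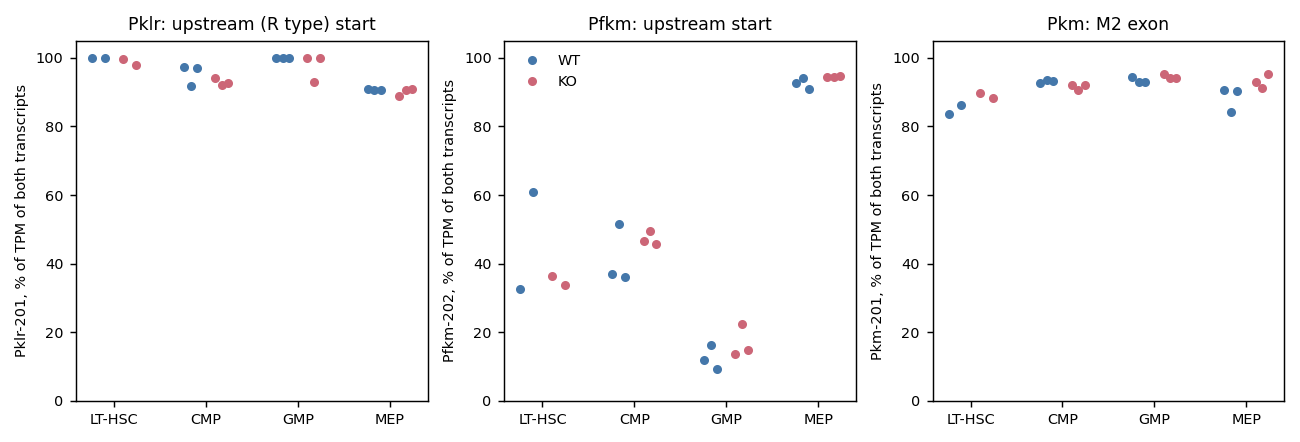
Share (percent of the TPM of 2 transcripts) of Pklr-201, Pfkm-202 and Pkm-201 in each of 22 libraries, with WT in blue and KO in red. Pfkm-202 ranges from 9.22% in GMP to 94.8% in MEP, whereas Pklr-201 stays at 89.0% or above and Pkm-201 at 83.5% or above in every library.

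Pfkl was lower in KO cells in all 3 precursor populations. It fell to 52.0, 38.5 and 45.3 TPM in KO GMP (log2 -0.33 ± 0.08, adjusted p = 0.0184) and to 44.4, 45.7 and 40.0 TPM in KO MEP (-0.39 ± 0.05, adjusted p = 0.000922). In KO CMP it had 57.7, 60.4 and 57.8 TPM, with a log2 fold change of -0.26 ± 0.06 (SE) and no overlap with WT. Pfkm had 55.9, 57.8 and 49.2 TPM in KO CMP (log2 0.35 ± 0.08, SE), also without overlap, where Pfkm-202 went from 13-22.3 to 22.6-28.6 TPM and Pfkm-201 from 21.0-25.2 to 26.7-29.9. In MEP, Pfkm fell slightly, to 89.7, 94.5 and 86.0 TPM (-0.19 ± 0.05, adjusted p = 0.0377), a call that was lost without KO mouse 301 (-0.17, adjusted p = 0.164) and in the joint fit (adjusted p = 0.113). In GMP, KO (16.5, 12.5 and 15.1 TPM) and WT overlapped, and the log2 fold change was 0.11 ± 0.09 (adjusted p = 0.427).

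Aldoa, the main aldolase of most tissues, went in opposite directions in KO GMP and KO MEP. It rose in KO GMP, from 624, 575 and 556 to 734, 724 and 709 CPM (log2 0.30 ± 0.07, adjusted p = 0.00876), and fell in KO MEP, from 429, 402 and 381 to 299, 310 and 291 CPM (-0.43 ± 0.05, adjusted p = 0.0011). Neither pair of groups overlapped in CPM. In TPM the GMP groups overlapped, at 602 to 691 in WT and 689 to 755 in KO. In CMP it had 352 to 394 CPM in WT and 297 to 334 in KO (log2 -0.24 ± 0.07, SE). Among WT populations GMP was highest, at 691, 658 and 602 TPM, and exceeded CMP by 0.86 ± 0.05 (log2; adjusted p = 2.61e-08).

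Bpgm makes 2,3-bisphosphoglycerate, which lowers the oxygen affinity of hemoglobin, and its RNA was low in all precursors. WT MEP had 15.4, 14.2 and 12.9 TPM, WT GMP 14.4, 12.4 and 14.8 and WT CMP 21.6, 21.7 and 16.0, and the lower level of MEP against CMP did not pass with a length offset (-0.19, adjusted p = 0.209). GMP and MEP overlapped and did not differ past the threshold (log2 0.13 ± 0.09, adjusted p = 0.221). In KO MEP it rose, from 17.5, 17.8 and 16.3 to 22.1, 22.9 and 23.5 CPM (0.41 ± 0.07, adjusted p = 0.00469). In GMP, KO and WT overlapped (-0.04 ± 0.10, adjusted p = 0.805), as they did in CMP (log2 -0.08 ± 0.08, SE).

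In the precursors, lactate dehydrogenase RNA was nearly all Ldha, the form that favors lactate production, and Ldhb varied between populations. In LT-HSC, Ldha made up 81.5% to 88.3% of the TPM of both genes. Ldha had 685 to 818 TPM in WT CMP, 668 to 744 in WT GMP and 771 to 873 in WT MEP, whereas Ldhb had 51.0, 59.7 and 49.3 TPM in WT GMP, 15.1, 18.1 and 14.9 in WT CMP and 4.01, 2.85 and 4.0 in WT MEP. WT MEP was below WT GMP in Ldhb by -3.81 ± 0.15 (log2, SE; adjusted p = 4.12e-11). In the KO, Ldhb fell in GMP to 41.4, 37.7 and 34.9 TPM (-0.32 ± 0.08, adjusted p = 0.0184) and in MEP to 1.58, 1.43 and 2.53 TPM (-1.01 ± 0.23, adjusted p = 0.015). Ldha fell in KO MEP to 671, 649 and 600 TPM (-0.38 ± 0.05, adjusted p = 0.00115). It rose in KO GMP, from 734, 651 and 690 to 883, 750 and 889 CPM (0.28 ± 0.09, adjusted p = 0.0387). In TPM the Ldha groups overlapped in GMP, at 668 to 744 in WT and 654 to 833 in KO. The Ldha call in GMP was lost without KO mouse 301 or 308 or WT mouse 305 or 309 (adjusted p of 0.102 to 0.151). In CMP both genes overlapped between KO and WT, with log2 fold changes of 0.00 ± 0.07 for Ldha and 0.11 ± 0.12 for Ldhb.

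**Figure D4:**
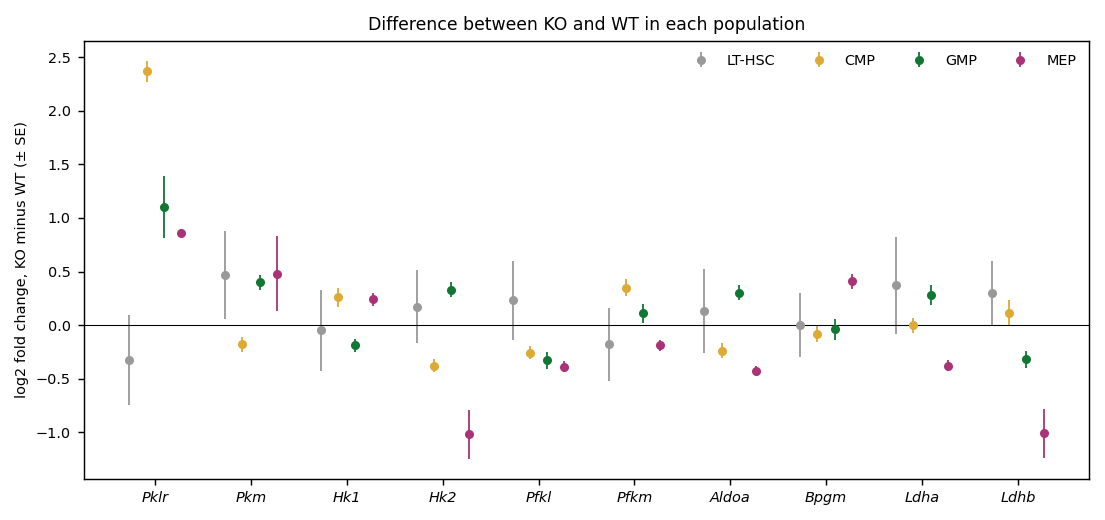
Log2 fold change (KO minus WT, edgeR) of the 10 genes in 4 populations, with bars of 1 SE. Pklr is highest in CMP (2.37, the contrast from which it was noted), and Aldoa, Ldha and Hk2 lie above 0 in GMP and below 0 in MEP.

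Counted together, 5 of the 10 genes rose in KO GMP (Pklr, Pkm, Hk2, Aldoa and Ldha) and 3 fell (Hk1, Pfkl and Ldhb), where 17.5% of 16382 tested genes were higher and 16.3% lower. In KO MEP, 3 rose (Pklr, Hk1 and Bpgm) and 6 fell (Hk2, Pfkl, Pfkm, Aldoa, Ldha and Ldhb), where 14% of 15776 genes were higher and 15.4% lower. The median log2 fold change of the 10 genes was 0.19 in GMP and -0.29 in MEP, against -0.01 and 0.00 over all genes tested. In CMP, 3 genes (Pklr, Hk1 and Pfkm) had all KO libraries above all WT libraries in CPM and 4 (Pkm, Hk2, Pfkl and Aldoa) had them below, where 15.7% and 18.3% of 17213 genes did so. Pkm did so by a narrow margin, 748 against 749 CPM.

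The KO effect differed between MEP and GMP, tested as an interaction in the 18-library fit, for 6 of the 10 genes. It was lower in MEP for Hk2 (-1.38 ± 0.18, log2, SE; adjusted p = 0.000113), Aldoa (-0.74 ± 0.08, 1.35e-05), Ldhb (-0.70 ± 0.21, 0.0299) and Ldha (-0.67 ± 0.10, 0.00029). It was higher in MEP for Bpgm (0.44 ± 0.12, 0.0191) and Hk1 (0.43 ± 0.09, 0.00295). Over all 18522 genes, 14.6% were lower and 12.2% higher. The Ldhb difference did not pass without mouse 301, 304 or 309 (adjusted p of 0.113 to 0.147), and that of Bpgm did not pass without mouse 309 (0.1) or with a length offset (0.136). Pfkm passed as lower in MEP with size factors (-0.33, adjusted p = 0.0963), with DESeq2 (-0.33, 0.0766) and without the mouse block (-0.31, 0.0761), and narrowly missed in the edgeR fit used here (-0.30 ± 0.12, adjusted p = 0.1). For Pklr the effects in MEP and GMP did not differ past the threshold (-0.23 ± 0.23, adjusted p = 0.563). Relative to CMP, the Pklr effect was lower by -1.50 ± 0.16 in MEP and by -1.27 ± 0.24 in GMP, given without a test.

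Between WT populations, 5 of the 10 genes were higher in MEP than in CMP and 4 lower, where 33.5% and 37.1% of 18522 genes passed in those directions. For GMP against CMP 4 were higher and 4 lower (20.6% and 24.6% of all genes), and for MEP against GMP 4 were higher and 4 lower (35.3% and 35.4%).

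Where further enzymes of the pathway passed, all rose in KO GMP and most fell in KO MEP and KO CMP. Of 15 further glycolysis genes, 12 were tested in GMP, and 7 rose in the KO (Hk3, Gpi1, Pfkp, Tpi1, Pgk1, Pgam1 and Eno1) while 0 fell (edgeR; 0 also at an unadjusted p under 0.05 and by DESeq2). Over all genes tested in GMP, 17.5% were higher and 16.3% lower. In MEP, 1 of 12 rose (Pgam1) and 6 fell (Gpi1, Pfkp, Tpi1, Pgk1, Eno1 and Eno3), where 14% of all genes were higher and 15.4% lower. In CMP, 6 of 13 fell (Hk3, Gpi1, Pfkp, Gapdh, Pgk1 and Pgam1), where 12.8% of all genes were lower. The interaction was lower in MEP than in GMP for 6 of 13 (Gpi1, Pfkp, Tpi1, Gapdh, Pgk1 and Eno1), where 14.6% of all genes were lower. The pentose phosphate pathway, which makes NADPH and ribose, rose in KO GMP for 6 of 8 genes (median log2 0.50), and in KO MEP 1 rose and 3 fell. The shares over all genes given above for GMP and MEP apply here too. The neutrophil precursor markers moved alongside in GMP, 7 of 10 rising and 1 (Ltf) falling. Their sum went from 30249-35649 to 39861-45823 TPM, while the 7 basophil and mast cell markers went from 999-1476 to 315-380 TPM. In CMP, 7 of the 10 neutrophil precursor markers fell, their sum going from 4199-4891 to 1745-2681 TPM. So did 5 of 7 basophil and mast cell markers (124-304 to 94.7-95.1 TPM). Of the 8 megakaryocyte markers there, 6 fell and 1 (Gp9) rose, the sum going from 772-1134 to 598-623 TPM. Over all genes tested in CMP, 12.8% were lower and 10.6% higher. In MEP the neutrophil precursor markers summed to 53.8-161 TPM in WT and 44.3-60.9 in KO. Their part in these changes was not tested.

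Over 5 lists with 57 genes of glycolysis, its transporters and regulators, the pentose phosphate path, gluconeogenesis and pyruvate entry into mitochondria, 21 of 48 tested genes rose in KO GMP and 5 fell, where 17.5% of all genes were higher and 16.3% lower. With the KO and WT columns paired as a block 8 fell, and without WT mouse 305, 9 fell. The 3 largest rises were those of Pfkfb4, which sets the level of an activator of phosphofructokinase (11.3 ± 1.71 to 32.6 ± 4.74 TPM, SD, n = 3; log2 1.68 ± 0.11, SE; adjusted p = 1.75e-05), and of G6pdx and Pgd, both NADPH-making dehydrogenases of the pentose phosphate path (log2 0.94 and 0.93). The largest falls were those of the sugar transporter Slc2a6 (-2.01), the mitochondrial phosphoenolpyruvate carboxykinase Pck2 (-0.71) and the pyruvate dehydrogenase phosphatase Pdp1 (-0.69).

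In MEP, 8 of 47 rose and 17 fell, where 14% of all genes were higher and 15.4% lower, so the share that rose was near that of all genes. The insulin-responsive glucose transporter Slc2a4 rose from 0.649 ± 0.0987 to 3.43 ± 0.233 TPM (log2 2.52 ± 0.26, adjusted p = 0.000395), followed by Pcx, pyruvate carboxylase (1.60), and Pfkfb1 (0.65). Pck2 fell from 83.7 ± 1.38 to 25.0 ± 0.868 TPM (-1.77 ± 0.04, adjusted p = 1.87e-06), and Pfkfb4 (-1.63) and Pfkfb3 (-1.01) fell as well. Pfkfb4 thus rose in KO GMP and fell in KO MEP. In CMP, 9 of 50 rose, led by Pcx (0.99), Minpp1, a phosphatase that also acts on 2,3-bisphosphoglycerate (0.62), and the aldolase Aldoc (0.60), and 14 fell, led by Slc2a6 (-1.96), the gluconeogenic Fbp1 (-1.42) and the myeloid hexokinase Hk3 (-1.19), where 10.6% of all genes were higher and 12.8% lower. Without WT mouse 309, 5 rose and 9 fell in CMP, and without KO mouse 301, 6 rose and 8 fell. The Pfkfb1 call in MEP was lost without WT mouse 300 or KO mouse 304 or 308. That of Aldoc in CMP was lost without KO mouse 301 or 308 or WT mouse 305 or 309, with a length offset and in the joint fit.

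These lists also separated the WT populations. Hk3 had 321 ± 24.6 TPM in GMP, 102 ± 2.17 in CMP and 0.775 ± 0.46 in MEP (SD, n = 3), so that MEP was below GMP by -8.55 ± 0.22 (log2, SE; adjusted p = 1.15e-12). Fbp1 (-5.90) and Tigar, which lowers the phosphofructokinase activator (-6.04), were also lower in MEP than in GMP. Minpp1 was higher in MEP, at 276 ± 18.1 TPM against 36.4 ± 2.34 in GMP (3.08 ± 0.08, 1.1e-12), as were the transporters Slc2a8 (2.15) and Slc2a3 (1.65). Against CMP, MEP was higher in Minpp1 (2.42), Slc2a8 (2.0) and Pcx (1.45) and lower in Hk3 (-6.74), Slc2a6 (-5.92) and Fbp1 (-4.97). GMP was higher than CMP in Tigar (1.83), Hk3 (1.81) and Pgd (1.69) and lower in Aldoc (-1.57), Txnip (-1.50) and Slc2a3 (-1.33), each past an adjusted p of 0.1. All 7 genes of pyruvate entry into mitochondria were higher in WT MEP than in WT GMP and WT CMP (edgeR). Over all genes tested, 35.3% were higher in MEP than in GMP and 33.5% higher than in CMP. With DESeq2, 6 of the 7 passed against GMP and 7 against CMP.

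In LT-HSC no difference between KO and WT could be shown. Pklr had 31.6 and 67.7 TPM in WT mice S245 and S269 and 50.5 and 43.5 in KO mice S244 and S270, so the KO values lay between the WT values (log2 -0.33 ± 0.42, adjusted p = 0.885). Of the 10 genes, 0 rose and 0 fell with edgeR (0 also at an unadjusted p under 0.05 and by DESeq2), where 0.0264% of 22732 genes were higher and 0.0528% lower. Pkm had 550 and 586 TPM in WT and 648 and 689 in KO (0.47 ± 0.41, adjusted p = 0.876). The median over all genes tested was -0.16. The values turned on the WT library used: without WT mouse S269 the log2 fold changes of Pkm (0.64), Pfkl (0.61) and Ldha (0.80) were past the threshold, and without WT mouse S245 that of Pklr was (-0.89, adjusted p = 0.0825). Such a fit has 1 WT library, which is assumed to vary like the 2 KO libraries, so these values show no rise or fall. WT mouse S269 also had the larger share of Pfkm-202, at 60.9% against 32.6% in mouse S245. In level, LT-HSC stood apart from the precursors by Ldhb, at 188 to 228 TPM against at most 59.7 in any precursor library, and by Hk1-205, a transcript that took 0.139% to 1.88% of the TPM of 3 long Hk1 transcripts, against 26.3% to 33.6% in precursors. LT-HSC and precursors were prepared with different kits, so kit and population cannot be told apart here.

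Over the 18 precursor libraries, the genes most like Pklr by the Pearson correlation of log2(TPM + 1), among 10281 genes with a mean of at least 5 TPM, were Slc38a5 (0.999), Spire1 (0.998), Slc25a21 (0.998), Sphk1 (0.997) and the Kell blood group gene Kel (0.997). Slc38a5, an amino acid transporter, averaged 14.9 TPM in WT CMP, 69.2 in KO CMP, 127 in WT MEP and 200 in KO MEP. Among the other 9 genes, Pfkm (0.979) and Hk1 (0.970) were most like Pklr, and Aldoa (-0.926), Hk2 (-0.915) and Ldhb (-0.905) least. Those most like Pkm were Alox5ap (0.998), Limd2, Fmnl3, Tnfaip8 and Pstpip1, and of the set Hk2 (0.964) and Ldhb (0.947). These values describe mice and populations that share libraries, and carry no test.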

How the data were processed

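RNA-seq of 22 libraries was used. The authors quantified 100 bp paired-end reads with kallisto against Ensembl transcripts and deposited, per transcript, an estimated count (fragments shared by transcripts are divided among them) with its TPM and effective length (per the file headers). Libraries of LT-HSC were made with SMART-Seq v4 and those of precursors with TruSeq. The deposited TPM values were scaled by kallisto for effective length.

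Of 115088 transcripts, 114200 (99.2%) were paired with genes of GENCODE vM21 (GRCm38), and counts and TPM were summed per gene; a second Aldoa identifier (0.411% of its TPM) was joined to Aldoa. Summed estimated counts were rounded and tested with edgeR 4.0.16 (R 4.3.3; TMM, filterByExpr, quasi-likelihood test, FDR 0.1), each population apart. WT populations and the interaction were tested in 1 fit of the 18 precursor libraries, blocked by mouse. Isozyme ratios (log2 of TPM + 0.1) were compared by exact permutation in scipy 1.17.1. No test was made between LT-HSC and precursors. Figures used matplotlib 3.10.9. Group means are given with the SD and fold changes with the SE. Reads of genes with near-identical pseudogene copies, such as Ldha and Aldoa, could be split among them.

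The 10 genes, the 5 pathway lists and the 9 marker lists were chosen with earlier results of these data known. Named pathway genes are the 3 largest rises and the 3 largest falls per comparison past the threshold, with a mean of at least 1 TPM and groups that do not overlap. Alternatives were DESeq2 1.42.0, median-of-ratios size factors, no filter, a length offset, a replicate block, a joint fit and leaving out libraries. The block pairs the KO and WT columns of the study's tables by their order, which is not described there as a pairing; precursor libraries in paired columns correlated in their deviations (r = 0.173 to 0.626), against -0.526 to 0.367 for the other KO and WT combinations, and in MEP 2 unpaired combinations exceeded the lowest pair; with 2 libraries a group, the LT-HSC value (0.13) is the same for both pairs by construction. The labels name mice by number, and p-values measure the spread between these samples. On simulated data, the fits per precursor population recovered most changed genes and that of LT-HSC few, and false calls exceeded the FDR set. The rises among the further glycolysis genes in KO CMP are not all reported here.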

Additional observations from a re-analysis of the deposited data

Results flagged for a closer look

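For 6 of the 10 genes the KO effect in MEP differed from that in GMP in the interaction test of the 18-library fit (edgeR, log2, SE). Hk2 differed by -1.38 ± 0.18 (-1.02 in MEP and 0.33 in GMP), Aldoa by -0.74 ± 0.08 (-0.43 and 0.30) and Ldha by -0.67 ± 0.10 (-0.38 and 0.28), so the sign was opposite in the 2 populations. Hk1 differed by 0.43 ± 0.09 (0.24 and -0.19), again with opposite signs. Ldhb differed by -0.70 ± 0.21 and fell in both populations (-1.01 and -0.32). Bpgm differed by 0.44 ± 0.12 (0.41 in MEP and -0.04 in GMP). All precursor groups have 3 samples and LT-HSC groups 2, so no library was examined as an outlier.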

How the results depend on the processing

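With the KO and WT columns paired as a replicate block, 8 genes of the 5 lists fell in KO GMP in place of 5, and no KO-against-WT call on the 10 genes changed. With a length offset, 1 of the 10 genes was higher in the MEP-less-GMP difference in place of 2 (Bpgm did not pass). With a pseudocount of 1 TPM, Hk1 over Hk2 in MEP differed by 0.89 in place of 1.19. Leaving out single libraries gave, in LT-HSC, 0 to 3 of the 10 genes higher and 0 to 1 lower, and 0 to 13 and 0 to 3 genes of the 5 lists, the highest counts higher coming without S269, where the 1 WT library left is assumed to vary like the KO pair. It gave 5 to 8 list genes higher and 8 to 14 lower in CMP (fewest without WT mouse 309 and KO mouse 301), 4 to 9 lower in GMP (most without WT mouse 305), and 1 to 2 of the 10 genes higher in the MEP-less-GMP difference. The Pklr difference in CMP stayed at 2.30 to 2.49. The cause of these shifts was not tested.

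Signs that changed belong to differences that passed no threshold in the reported fit. In LT-HSC, Pklr was 0.10 with a length offset, and Bpgm was 0.01 with size factors, 0.04 without a filter, 0.04 with a length offset and 0.03 with DESeq2. Leaving out a library there gave ranges of -0.89 to 0.64 for Pklr, -0.32 to 0.28 for Hk1, -0.06 to 0.44 for Hk2, -0.08 to 0.61 for Pfkl, -0.52 to 0.28 for Pfkm, -0.09 to 0.39 for Aldoa and -0.09 to 0.09 for Bpgm. Likewise Ldha in WT GMP against WT CMP ran from -0.02 to 0.15, and Pfkl in WT MEP against WT GMP from -0.04 to 0.00. In the MEP-less-GMP difference, Pklr was 0.13 with a length offset and ran from -0.41 to 0.04 without a mouse, Pkm from -0.23 to 0.54 and Pfkl from -0.19 to 0.03. With 2 libraries per group, LT-HSC limits what can be seen there.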
